A study of Mus musculus with 23 samples.

Results

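The livers compared were those of 16 male F3 mice of the C57bl/6J strain, out of 23 mice whose liver small RNA was sequenced. They were chosen by the lineage and diet in their sample labels: 8 HFoleic mice, which received a high-fat, high-sucrose diet, and 8 reference mice, which received a low-fat diet. Both groups came from the control lineage, whose growing diet during breeding was supplemented with high-oleic sunflower oil, so the test diet is the labelled difference between them. The other 7 libraries (HFepa, the omega 3 lineage on the high-fat diet) entered the same fit and were compared with nothing here. Each library is 1 mouse, named below by the number in its label: reference 1 to 8 and HFoleic 9 to 15 and 23. The labels give no sequencing batch. No reference library carries a number above 8, so the diet and the order of the library numbers cannot be told apart.

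A miRNA is cut from a hairpin precursor, whose arms give a mature product named 5p and another named 3p. One of them is usually kept by an Argonaute protein while the other is degraded. Bases 2 to 8 of the mature miRNA, the seed, pair with target mRNAs, so miRNAs with the same seed form a family with overlapping targets. Neighbouring hairpins are often cut from a shared primary transcript, and many miRNAs mark a cell type: miR-122 and miR-192 hepatocytes, miR-143 and miR-199 stellate cells and fibroblasts, miR-126 endothelium, miR-150 and miR-142 leukocytes. The 1218 listed mature miRNAs were therefore also summed by seed family and by genomic cluster, and described by lists of cell-type miRNAs. All levels are in CPM (counts per 1000000 counts of the library, scaled by TMM factors), and a miRNA, family or cluster was called when the adjusted p of edgeR was under 0.05 and the log2 fold change was over 0.25 in size.

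The mature sequences behind the families and loci described below are given 5′ to 3′ as in the RefSeq mouse table of GRCm38.p6, with the seed in capitals. The miR-99/100 family is shown because all 3 of its members were called higher, with miR-125 and let-7e because they come from the same loci.
miR-99a-5p: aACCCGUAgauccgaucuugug
miR-100-5p: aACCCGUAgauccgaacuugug
miR-99b-5p: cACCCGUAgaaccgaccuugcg
miR-125b-5p: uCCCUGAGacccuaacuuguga
miR-125a-5p: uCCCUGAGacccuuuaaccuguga
let-7e-5p: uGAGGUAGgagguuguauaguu
The miRNAs of the Clcn5 locus are shown because miR-500-3p and miR-501-3p share a seed and a locus but only miR-501-3p was called.
miR-501-3p: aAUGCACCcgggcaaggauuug
miR-500-3p: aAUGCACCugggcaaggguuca
miR-362-5p: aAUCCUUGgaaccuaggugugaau
The miR-25/92/32 family is shown because its called members moved in opposite directions, and miR-103 and miR-107 because only one of these near-identical miRNAs was called.
miR-25-3p: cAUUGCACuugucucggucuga
miR-92a-3p: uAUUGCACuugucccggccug
miR-92b-3p: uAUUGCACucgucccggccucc
miR-32-5p: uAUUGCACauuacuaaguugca
miR-103-3p: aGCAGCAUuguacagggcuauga
miR-107-3p: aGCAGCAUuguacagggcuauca
The pairs miR-136 and miR-3071 are shown because they are cut from opposite strands of the same DNA and are partly complementary.
miR-136-3p: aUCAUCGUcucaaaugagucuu
miR-3071-5p: aCUCAUUUgagacgaugaugga
miR-136-5p: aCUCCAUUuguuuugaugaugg
miR-3071-3p: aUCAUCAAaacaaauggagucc

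Some libraries stood apart before any comparison. Reference library 3 lay outside the range of the other 7 reference libraries in 58.3% of the tested miRNAs, whereas each of the others did so in 17.9 to 24.9%. Its hepatocyte miRNAs were the lowest of all libraries (114493 CPM against 208517 to 251720 CPM in the other reference libraries). Reference library 5 carried 6962.8 CPM of miRNAs from the imprinted Dlk1-Dio3 region and 2019.9 CPM of miR-375-3p, and reference library 4 carried 1884.8 CPM of miR-215-5p and 205.2 CPM of miR-133a-3p. The first principal component, with 42.5% of the variance, placed reference libraries 5 and 3 at -18.51 and -13.07 and the other 14 libraries between -2.12 and 5.08. Within HFoleic, libraries 9 to 11 lay at -3.98 to -1.71 on the second component (16% of the variance), near the reference libraries other than 3 (-3.87 to -1.71). Libraries 12 to 15 and 23 lay at 1.82 to 6.13, and reference library 3 beyond them at 6.53. Many of the results are therefore also given without reference libraries 3 to 5 or without HFoleic libraries 9 to 11. The total depth was 5242218 to 8139344 counts in reference and 4340903 to 7220112 in HFoleic.

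Of the 386 miRNAs tested, 48 were called in HFoleic vs. reference, which is 12.4%; 19 were higher (4.92%) and 29 lower (7.51%). No tested miRNA separated the groups completely (0 of 386, 0%), so every called miRNA overlapped between diets. When each of the 16 libraries was left out in turn, 9 calls held every time, 7 higher (miR-100-5p, miR-99a-5p, miR-99b-5p, miR-501-3p, miR-362-5p, miR-221-5p and miR-3082-3p) and 2 lower (miR-150-5p and miR-184-3p). The other 39 were lost without at least 1 library. Without HFoleic libraries 9 to 11, 57 miRNAs were called, 29 of them among the 48, and with these as the only HFoleic libraries 0 of 409 were called by edgeR, with 28 at an unadjusted p under 0.05. Without reference libraries 3 to 5, edgeR called 2, miR-335-3p and miR-501-3p, both higher. With the 7 HFepa libraries left out of the fit it called 7. Scaling by library size alone gave 47 calls with a different split, 10 higher and 37 lower, and moved the median log2 fold change of all tested miRNAs from 0.00 to -0.08. DESeq2 called 28, with the opposite majority of 15 higher and 13 lower, and its 13 called families were 9 higher and 4 lower. Summing by seed gave 25 called families of 271 (9.23%), of which 9 were higher and 16 lower, but only 2 of the 37 families with 2 or more tested members were called. The lower families, except those of miR-184-3p, miR-128-3p and miR-18a-3p, each had 1 tested member, from the Dlk1-Dio3 region. These were highest in reference library 5, so the number of lower families rests largely on that library. Summing by locus gave 14 called clusters of 205 (6.83%), 5 higher and 9 lower, and 3 of the 32 clusters with 2 or more tested hairpins.

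The miR-99/100 family rose in the HFoleic livers and was the only family in which all of 3 or more tested members were called. These miRNAs share the seed ACCCGUA and are known regulators of mTOR signalling. miR-99a-5p and miR-100-5p are identical at 21 of 22 positions (U16A, counted from the 5′ end of miR-99a-5p) and miR-99b-5p matches miR-99a-5p at 18 (A1C, U11A, U16C and U21C). Reads of the first pair can be told apart only by a single base, so their assignment is uncertain. The summed family level was 1065.9, 1166.5 and 1584.8 CPM in the reference group (lowest, median and highest library) and 1000.2, 3529.3 and 8634.6 CPM in HFoleic. The HFoleic range thus started below the reference range and reached far above it. The log2 fold change of the sum was 1.61 ± 0.37 (SE, n = 8 and 8, edgeR adjusted p = 0.0163), and the call held in all 16 leave-one-out fits.

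All 3 members of the family were called higher in the fit with the HFepa libraries. In a fit of the 2 groups alone, miR-100-5p and miR-99a-5p kept their calls (edgeR adjusted p = 0.0359 and 0.0425). miR-99b-5p did not (edgeR adjusted p = 0.0516). miR-100-5p had levels of 186.7, 198.1 and 281.6 CPM in the reference group and 172.5, 911.6 and 1855.9 CPM in HFoleic, a log2 fold change of 2.03 ± 0.44 (SE, edgeR adjusted p = 0.0107). Libraries 9 to 11 lay at 172.5 to 190.6 CPM, within or under the reference range, and the other 5 HFoleic libraries at 586.8 CPM or more. miR-99b-5p had 543.7, 659.7 and 987.2 CPM in the reference group and 488.5, 2004.4 and 5687.0 CPM in HFoleic (log2 fold change 1.64 ± 0.41, edgeR adjusted p = 0.0174). Here too libraries 9 to 11 did not exceed 708.3 CPM, while the lowest of the other 5 reached 1367.8 CPM. miR-99a-5p had 288.4, 310.3 and 348.0 CPM in the reference group and 330.5, 613.3 and 1091.7 CPM in HFoleic (0.99 ± 0.21, edgeR adjusted p = 0.0107). Its levels in libraries 9 to 11 (330.5 to 337.9 CPM) were inside the reference range, and all other HFoleic libraries were above it.

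The rise of the family was therefore carried by HFoleic libraries 12 to 15 and 23. Without libraries 9 to 11 the log2 fold change of the sum was 2.06, and with libraries 9 to 11 as the only HFoleic libraries it was -0.13. Without reference libraries 3 to 5 it was 1.62, but the edgeR adjusted p was 0.0861. Among all 386 tested miRNAs, 9.59% had libraries 9 to 11 all below the other 5 HFoleic libraries, and this held for 9 of the 19 miRNAs called higher. The split by library number was chosen after the values were seen. With a covariate that splits the libraries at number 11, the log2 fold change of the family sum was -0.14 (edgeR adjusted p = 0.907). In that fit 0 of the miRNAs called without the covariate were still called. No reference library carries a number above 11, so the split is estimated within HFoleic only. The diet contrast of this fit sets the reference group against HFoleic libraries 9 to 11 and rests on those few libraries. It cannot show whether reference livers would also differ across the split. The cause of the split was not tested.

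**Figure D1:**
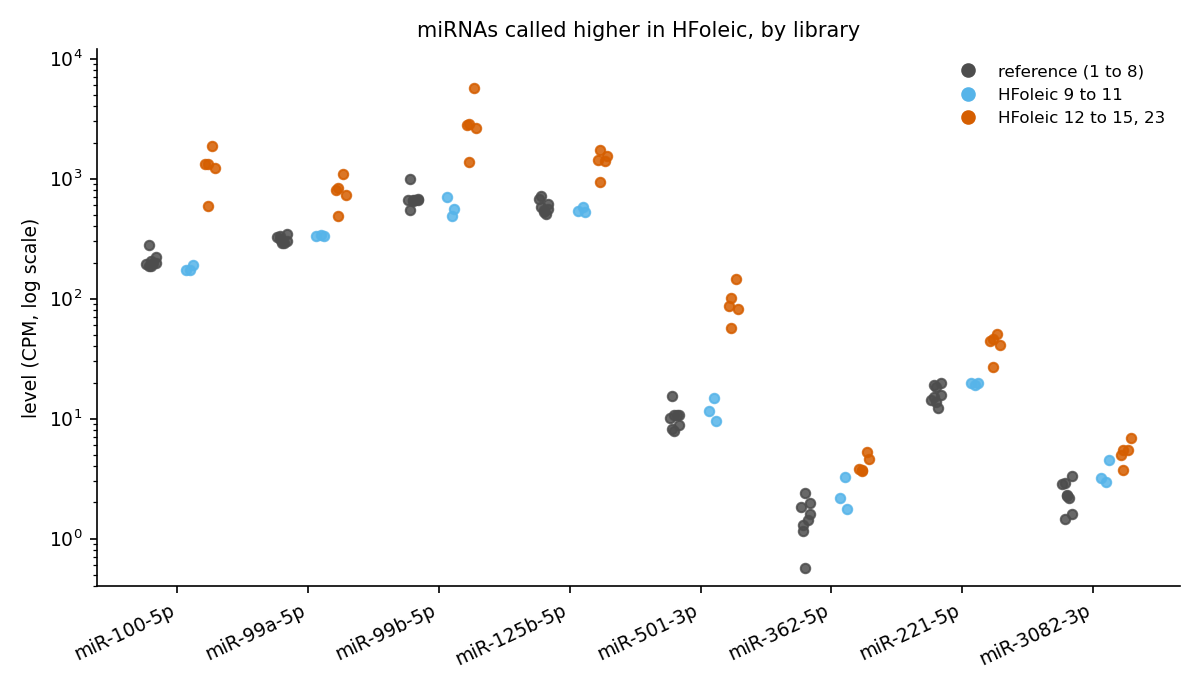
Level of 8 miRNAs called higher, in CPM on a log axis, for each library, with reference libraries, HFoleic libraries 9 to 11 and the other 5 HFoleic libraries in separate colours. For miR-100-5p, miR-99b-5p and miR-501-3p, HFoleic libraries 9 to 11 sit at the level of the reference libraries and the other 5 sit above all of them.

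Each of the 3 family members lies beside a let-7 and near or beside a miR-125 hairpin, and the let-7 and miR-125 products of these loci, other than miR-125b-5p, were not called higher. On chromosome 17 (17830188 to 17830879 of GRCm38, plus strand, within Spaca6), miR-99b-5p was called higher while let-7e-5p, a member of the let-7 family of differentiation-linked miRNAs, was called lower (log2 fold change -0.58 ± 0.18, edgeR adjusted p = 0.0367). let-7e-5p fell from 275.7, 388.9 and 570.2 CPM to 176.9, 265.2 and 453.3 CPM, with overlapping groups, and its call held in 5 of 16 leave-one-out fits. miR-125a-5p, the most abundant product of this locus, stood at 2457.4 ± 363.1 and 2588.7 ± 586.4 CPM (mean ± SD, n = 8 each; log2 fold change 0.08 ± 0.20). The opposite arms miR-99b-3p, let-7e-3p and miR-125a-3p had log2 fold changes of -0.44, -0.40 and -0.26 and were not called, and neither was the sum of the cluster (0.47 ± 0.24, edgeR adjusted p = 0.23).

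On chromosome 16 (77598936 to 77599750, plus strand, within Mir99ahg), the cluster sum was called higher, 0.89 ± 0.19 (edgeR adjusted p = 0.0146). This sum is nearly all miR-99a-5p, because let-7c-5p also comes from another locus and was left out of it. let-7c-5p itself had 6127.7 ± 889.1 CPM in reference and 6531.0 ± 910.6 CPM in HFoleic (log2 fold change 0.09), and miR-99a-3p 29.5 ± 3.75 and 29.3 ± 3.51 CPM. On chromosome 9 (41531425 to 41536811, plus strand, within 3110039I08Rik), the sum was called at 2.0 ± 0.44 (edgeR adjusted p = 0.0146) and consisted of miR-100, whereas let-7a-5p, also made elsewhere, had a log2 fold change of 0.08.

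miR-125b-5p, whose hairpins lie further along on both chromosome 9 (41581926 to 41582002) and chromosome 16 (77646273 to 77646343), was called higher as well. It is known as an inhibitor of p53 and inflammatory signalling. It had 510.1, 568.8 and 721.6 CPM in the reference group and 532.0, 1167.1 and 1732.8 CPM in HFoleic (0.87 ± 0.24, edgeR adjusted p = 0.0249). Libraries 9 to 11 lay inside the reference range (532.0 to 581.1 CPM) and the other 5 at 936.7 CPM or more. The call was lost without library 5, 13, 14 or 15, and in the fit of the 2 groups alone (edgeR adjusted p = 0.0516). The products of the 3p arms, which tell the hairpins apart, had log2 fold changes of -0.61 for miR-125b-1-3p and 0.17 for miR-125b-2-3p, neither called. The highest reference value of miR-125b-1-3p was 24.5 CPM, beside a reference median of 7.65 CPM and an HFoleic median of 6.58 CPM. Without reference libraries 3 to 5 its log2 fold change was -0.23. The whole miR-125 family, dominated by miR-125a-5p, was not called (0.25 ± 0.18, edgeR adjusted p = 0.412).

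**Figure D2:**
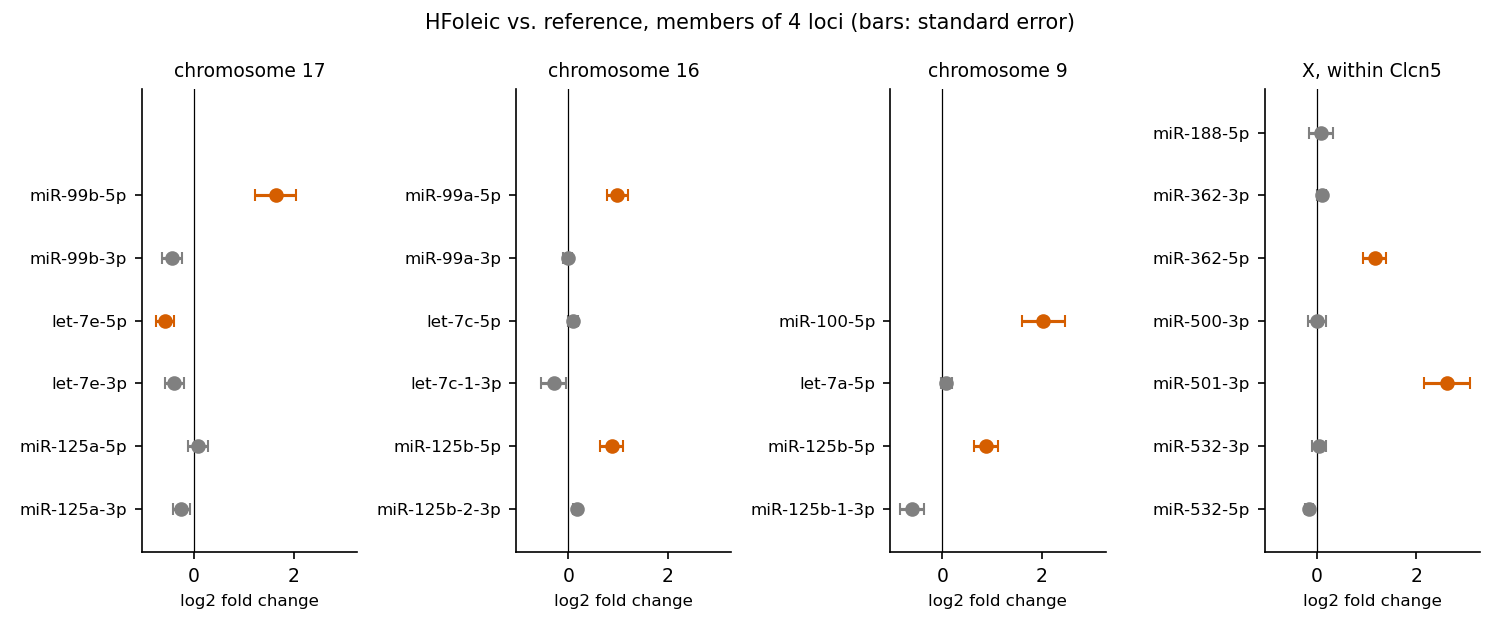
Log2 fold change (HFoleic vs. reference) with its standard error for the tested miRNAs of the loci on chromosomes 17, 16 and 9 and of the locus within Clcn5 on chromosome X, with called miRNAs in orange. miR-99b-5p, miR-99a-5p, miR-100-5p, miR-501-3p and miR-362-5p lie above 0 at 0.99 or more while most of their neighbours lie near 0.

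A similar contrast between neighbours was seen within Clcn5, a chloride channel gene on chromosome X (7153810 to 7319358), whose minus strand carries 5 listed hairpins between 7237683 and 7248497. miR-501-3p had 7.81, 10.4 and 15.4 CPM in the reference group and 9.62, 69.9 and 145.8 CPM in HFoleic, the largest fold change among the higher calls (2.62 ± 0.46, SE, edgeR adjusted p = 0.00386). Libraries 9 to 11 (9.62 to 14.8 CPM) lay inside the reference range and the other 5 at 57.4 CPM or more. Without libraries 9 to 11 its log2 fold change was 3.19, and with only these it was 0.23. miR-362-5p, at far lower levels, had 0.573, 1.52 and 2.41 CPM in the reference group and 1.75, 3.68 and 5.27 CPM in HFoleic (1.17 ± 0.23, edgeR adjusted p = 0.006). Its groups overlapped through libraries 9 to 11 (1.75 to 3.28 CPM), while the other 5 HFoleic libraries were all at 3.65 CPM or more. Both calls held in all 16 leave-one-out fits.

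The other 5 tested miRNAs of the locus were not called. miR-500-3p, which shares the seed AUGCACC with miR-501-3p and 18 of its 22 positions (substitutions U9C, G18A, C21U and A22G from miR-500-3p to miR-501-3p), stood at 6.04 ± 0.994 and 6.04 ± 1.85 CPM (mean ± SD). miR-532-5p, the most abundant product, had 211.2 ± 19.9 and 190.9 ± 24.0 CPM (log2 fold change -0.15), and miR-188-5p, miR-362-3p and miR-532-3p had log2 fold changes of 0.08, 0.10 and 0.04. Hence the family of both miRNAs was called (2.12 ± 0.39, edgeR adjusted p = 0.00472) through miR-501-3p, and the sum over the locus was not (0.18 ± 0.08, edgeR adjusted p = 0.154). Given the similarity of miR-500-3p and miR-501-3p, the assignment of reads between them is uncertain.

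In the miR-25/92/32 family, with the seed AUUGCAC, called members moved in opposite directions. miR-25-3p fell from 1004.1, 1118.1 and 1305.1 CPM to 808.4, 943.2 and 1067.6 CPM (-0.26 ± 0.06, edgeR adjusted p = 0.0174; 8 of 16 leave-one-out fits), and miR-92b-3p from 7.83, 9.93 and 54.9 CPM to 4.46, 6.75 and 10.8 CPM (-1.19 ± 0.35, edgeR adjusted p = 0.0301). The highest value of miR-92b-3p is reference library 3, and the call was lost without that library and without library 5, 14 or 15. miR-32-5p, cut from an intron of Tmem245, rose from 21.3, 25.6 and 27.5 CPM to 24.8, 33.8 and 42.6 CPM (0.43 ± 0.12, edgeR adjusted p = 0.0233), and it lost its call without library 5, 13, 14 or 15. miR-92a-3p, which makes up most of the family, had 6869.8 ± 503.0 and 5697.0 ± 1036.4 CPM (-0.27 ± 0.11, edgeR adjusted p = 0.116). The sum of the family was not called with all libraries (-0.25 ± 0.10, edgeR adjusted p = 0.109), although it was without HFoleic libraries 9 to 11 (-0.43, edgeR adjusted p = 0.00626).

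The single-hairpin loci Mir92b and Mir32 of this family were called like their miRNAs (-1.16 and 0.39, edgeR adjusted p = 0.0415 and 0.0428), whereas its larger clusters, which hold many proliferation-linked miRNAs, were not called. At Mir25 to Mir106b, within Mcm7 on chromosome 5 (138165321 to 138165818, minus strand), miR-25-3p and miR-106b-3p (-0.38 ± 0.12, edgeR adjusted p = 0.0468) fell, the latter with a call that held in 3 of 16 leave-one-out fits, while miR-93-5p and miR-106b-5p had log2 fold changes of 0.09 and 0.11. The cluster sum was -0.11 ± 0.05 (edgeR adjusted p = 0.158). At Mir17 to Mir92-1, the miR-17~92 cluster of Mir17hg on chromosome 14 (115043671 to 115044506, plus strand), miR-18a-3p (-0.67 ± 0.20, edgeR adjusted p = 0.0344) and miR-19a-3p (-0.40 ± 0.13, edgeR adjusted p = 0.0469) fell, with calls that held in 8 and 3 of 16 leave-one-out fits. Its oncogenic 5p products miR-17-5p, miR-18a-5p and miR-20a-5p had log2 fold changes of 0.08, 0.09 and 0.04, and the sum -0.07 ± 0.07 (edgeR adjusted p = 0.498). This sum leaves out miR-92a-3p and miR-19b-3p, which also come from another locus and had 604436 and 43675 counts in the 16 libraries. It therefore does not cover the most abundant products of the locus. miR-19b-3p had a log2 fold change of -0.19 and was not called.

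Other families with 2 or more tested members, of which 1 was called, were not called as sums. miR-107-3p, which lies in the pantothenate kinase gene Pank1 and is known to lower hepatic insulin sensitivity, rose from 550.4, 967.0 and 1215.4 CPM to 1192.0, 1222.4 and 1556.9 CPM (0.39 ± 0.12, edgeR adjusted p = 0.0357). The lowest reference value is library 3, and the call was lost without library 4, 5, 13, 14 or 15. miR-103-3p differs from it by 1 base (G22C) and had 1677.9 ± 123.8 and 1801.4 ± 81.8 CPM, a log2 fold change of 0.10, and their sum had 0.23 ± 0.08 (edgeR adjusted p = 0.0771). Reads of miR-103-3p and miR-107-3p can be told apart by that base alone, so their assignment is uncertain too. In the miR-181 family, which acts in lymphocytes and vascular cells, miR-181b-5p was called lower (-0.52 ± 0.15, edgeR adjusted p = 0.0278, lost without library 5, 10, 13, 14 or 15) and the sum was not (-0.29 ± 0.10, edgeR adjusted p = 0.0718). The highest values of miR-181b-5p were in reference libraries 3 and 5 (368.6 and 216.6 CPM). Without reference libraries 3 to 5 the log2 fold change of the family sum was -0.12. The let-7 family, with 9 tested members of which let-7e-5p alone was called, had a sum of 58853 ± 4942.3 CPM in reference and 54561 ± 8324.4 CPM in HFoleic (-0.09 ± 0.09, edgeR adjusted p = 0.541). For the miR-27 family, known in lipid metabolism, the edgeR adjusted p was 0.0269, but its log2 fold change of 0.20 ± 0.06 was under the threshold of 0.25.

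The balance between the arms also differed between the groups for some hairpins. The log2 ratio of 5p to 3p counts, with 1 count added to each, was tested by limma in 100 hairpins with both arms tested. It changed in 21 (21%), 14 towards 5p and 7 towards 3p, and 12 of these had no called arm. Of the 21 calls, 13 held in all 16 leave-one-out fits. Of all 100 hairpins, 18 had at least 1 called arm. The largest change was in miR-99b, from 6.21 to 6.71 in the reference group to 5.94 to 10.08 in HFoleic (difference 1.68 ± 0.47, SE, limma adjusted p = 0.0145). HFoleic libraries 9 to 11 lay at 5.94 to 6.58 and the other 5 at 8.61 to 10.08, outside the reference range. Next came miR-362 (1.04 ± 0.26), miR-221 (0.90 ± 0.24), miR-99a (0.85 ± 0.22) and miR-1843b (0.84 ± 0.23), each with a limma adjusted p of 0.0145. Without reference libraries 3 to 5 the limma adjusted p was 0.0721 for miR-99b and 0.117 for miR-221. For miR-362, miR-99a and miR-1843b it was 0.0427.

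Changes towards 3p were smaller and led by miR-511, cut from an intron of the macrophage mannose receptor gene Mrc1. Its log2 ratio was -1.03 to -0.50 in the reference group and -1.97 to -1.08 in HFoleic, without overlap (difference -0.63 ± 0.13, SE, limma adjusted p = 0.00378). This ratio was also lower in libraries 9 to 11 (-1.45 to -1.17), unlike the ratio of miR-99b. The limma adjusted p was 0.00641 without reference libraries 3 to 5 and 0.145 with libraries 9 to 11 as the only HFoleic libraries. Of its arms, miR-511-5p was called lower (-0.46 ± 0.15, edgeR adjusted p = 0.0482) and miR-511-3p was not (0.16). The hairpins miR-145a (-0.51), miR-27b (-0.48), miR-1839 (-0.43) and miR-21a (-0.40) also moved towards 3p. Among them miR-21a, whose 5p arm is a widely known marker of liver injury, kept its call in all 16 leave-one-out fits. Without reference libraries 3 to 5 the limma adjusted p of miR-21a was 0.0721. The calls of miR-145a, miR-27b and miR-1839 held in 4, 5 and 6 of 16 leave-one-out fits. Of the 21 changed hairpins 9 moved towards the less abundant arm, and of all 100 tested 44 did.

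Across all these hairpins, the less abundant arms held 1.78, 1.96 and 2.35% of the counts in the reference group and 1.71, 1.77 and 1.98% in HFoleic. The means were 2.0 ± 0.193% and 1.79 ± 0.089% (SD, n = 8 each), with overlapping groups and a difference of -0.209 percentage points (exact permutation test, two-sided, p = 0.00917). Without the 3 most abundant miRNAs the exact permutation p was 0.0769, and without HFoleic libraries 9 to 11 it was 0.0559.

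**Figure D3:**
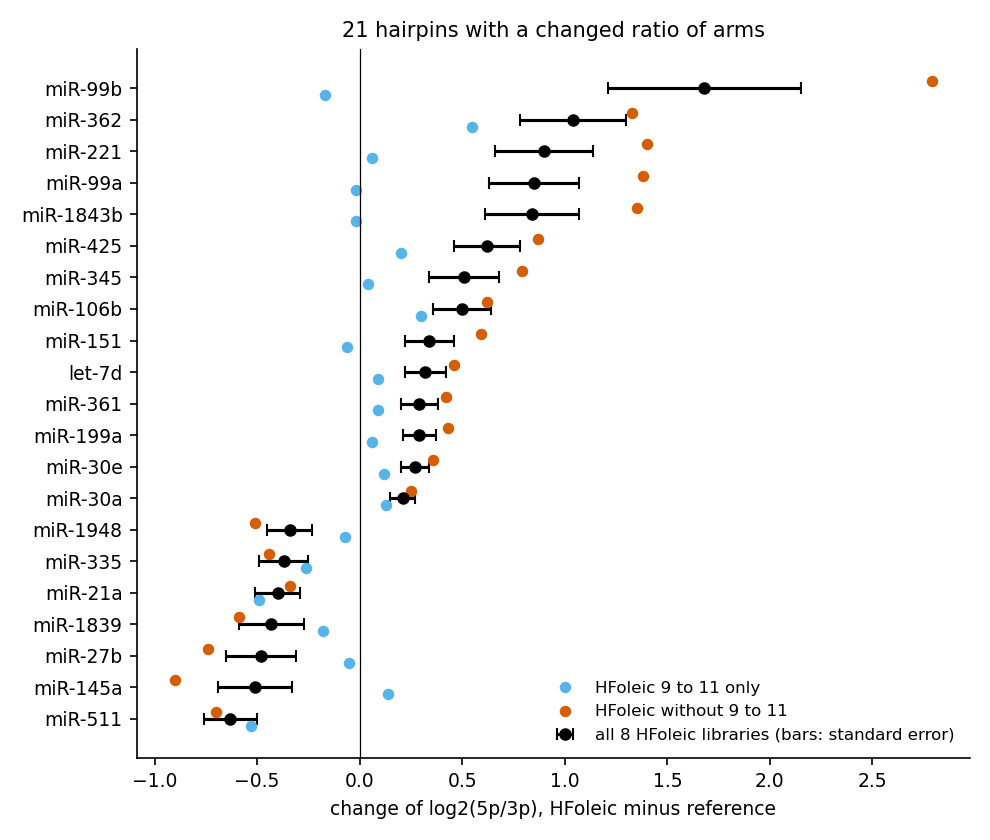
Difference in the log2 ratio of 5p to 3p counts between HFoleic and reference with its standard error, for the 21 hairpins that changed, with the difference for HFoleic libraries 9 to 11 only in blue and without them in orange. For most hairpins the blue points lie nearer 0 than the orange ones, and miR-511 lies below 0 in each.

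Of the 29 lower calls, 16 had over 50% of their reference counts in 1 library. The Dlk1-Dio3 region on chromosome 12 (109452823 to 110281097), an imprinted domain whose miRNAs are known from embryo, brain and muscle, gave 13 of them. Its 87 listed miRNAs summed to 179.8, 189 and 6962.8 CPM in the reference group and 154.9, 183.1 and 235.6 CPM in HFoleic. Only reference libraries 5 (6962.8 CPM) and 3 (1061.7 CPM) rose above 245.6 CPM. Of its 14 tested miRNAs, 13 were called lower with a median log2 fold change of -2.61 over the tested members, and the sums over its clusters were called at -2.95, -2.37 and -2.46 (edgeR adjusted p = 0.0224, 0.0245 and 0.0224). Without reference libraries 3 to 5, the members of these clusters had log2 fold changes of -0.45 to 0.18 and none was called.

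Within the region, miR-127-3p was the most abundant, with 67.0, 72.4 and 3939.2 CPM in the reference group and 55.4, 68.7 and 92.3 CPM in HFoleic. miR-410-3p had the largest fold change (-3.88 ± 0.94, edgeR adjusted p = 0.0174), from 1.62, 2.13 and 168.7 CPM to 0.868, 1.63 and 2.50 CPM. In both, the medians of the groups were close and the top value was library 5. The 4 products of miR-136 and miR-3071 were also called lower, but they are not independent: miR-136-3p shares a run of 19 bases with the reverse complement of miR-3071-5p, and miR-136-5p a run of 20 bases with that of miR-3071-3p. Their counts were 88.9 to 115.4% of those of their partner in each library, so reads of the opposite strands may have been counted for both.

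The remaining 3 of the 16 are known from other organs and also rested on 1 library. miR-375-3p, known from pancreatic islets and gut epithelium, had 12.8, 16.8 and 2019.9 CPM in the reference group and 9.0, 15.3 and 33.9 CPM in HFoleic, with 91.5% of its reference counts in library 5. miR-215-5p, known from the intestine, had 22.5, 29.3 and 1884.8 CPM and 23.1, 28.3 and 45.2 CPM, with 92.4% of its reference counts in library 4. miR-133a-3p, known from muscle, had 1.85, 5.62 and 205.2 CPM and 1.30, 4.90 and 10.3 CPM, with 88.1% in library 4. Away from that single library, the ranges of each of the 3 miRNAs in the groups overlapped broadly. Without reference libraries 3 to 5 their log2 fold changes were 0.13, 0.09 and 0.28, and with DESeq2, which replaces outlying counts, miR-215-5p was at 0.02.

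**Figure D4:**
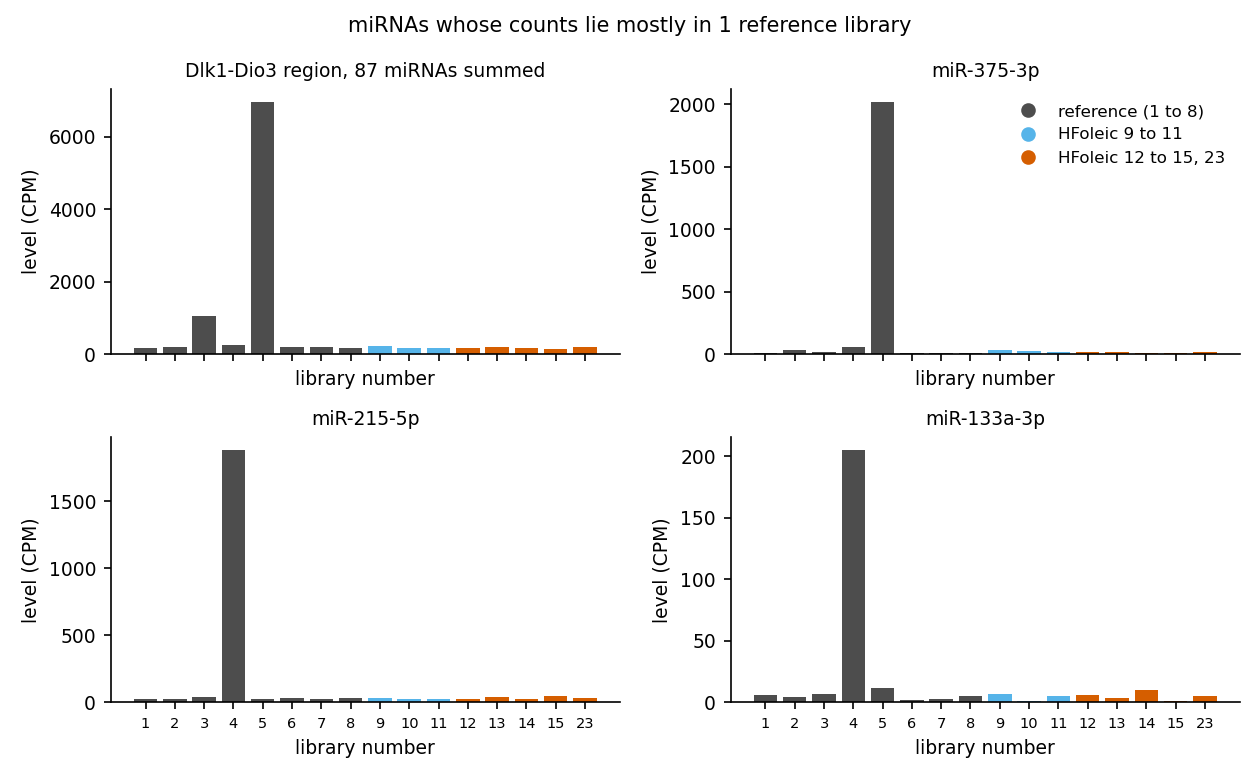
Level in CPM by library of the summed Dlk1-Dio3 miRNAs and of miR-375-3p, miR-215-5p and miR-133a-3p, as bars from 0. In each panel 1 reference library carries nearly all of the height, library 5 in the first 2 panels and library 4 in the others.

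The other 13 lower calls had log2 fold changes of -1.19 to -0.26. miR-150-5p, a miRNA of mature lymphocytes, fell from 216.9, 296.6 and 512.3 CPM to 90.2, 139.1 and 297.0 CPM (-0.94 ± 0.23, edgeR adjusted p = 0.0174), and in 6 of 8 HFoleic libraries it was outside the reference range. Libraries 9 to 11 were the nearest to the reference group for miR-150-5p (202.7 to 297.0 CPM). miR-184-3p, named here after its values were seen because it has under 10 CPM, fell from 9.07, 11.3 and 16.1 CPM to 3.33, 7.41 and 9.37 CPM (-0.75 ± 0.20, edgeR adjusted p = 0.0223), also with an overlap. miR-128-3p, best known from neurons and from cholesterol efflux, fell from 40.9, 45.6 and 52.3 CPM to 20.9, 30.5 and 43.6 CPM (-0.49 ± 0.14, edgeR adjusted p = 0.0311), with libraries 9 to 11 in the upper part of the HFoleic range, and held its call in 8 of 16 leave-one-out fits. In a bulk liver library, fewer cells of a type and less RNA per cell cannot be told apart.

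The cell-type lists gave 0 or 1 call each, beside 12.4% called over all tested miRNAs. The hepatocyte list (7 tested) had 1 member called, miR-192-3p (0.40 ± 0.13, edgeR adjusted p = 0.0455), which rose from 29.3, 60.3 and 73.8 CPM to 65.5, 78.8 and 91.9 CPM and held its call in 6 of 16 leave-one-out fits. The median over the list was 0.22, against 0.00 over all tested miRNAs, and 6 members lay above 0. miR-802-5p, an obesity-linked hepatocyte miRNA, had 683.2 ± 139.8 and 956.9 ± 165.0 CPM (0.49 ± 0.22, edgeR adjusted p = 0.151), and miR-122-5p, the classic hepatocyte miRNA, 18690 ± 3692.1 and 18657 ± 2044.2 CPM. Reads of miR-122-5p were nearly all counted for the antisense miR-122b-3p as well, at 97.6 to 98.5% of its count. Without reference library 3 the median of the list was 0.13, and without libraries 3 to 5 it was 0.03.

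The leukocyte, stellate and biliary lists had medians below 0 with all libraries. All 8 leukocyte miRNAs were below 0 (median -0.29), and miR-150-5p was the 1 called, with summed levels of 1843.8 to 3868.4 CPM in the reference group and 1621.3 to 2548.7 CPM in HFoleic. With DESeq2, 7 of the 8 were below 0, and without reference libraries 3 to 5 the median was 0.05, with miR-150-5p at -0.69. Of the 10 tested stellate cell and fibroblast miRNAs 0 were called (median -0.26; 23779 to 43517 CPM against 20121 to 28891 CPM), and of the 10 tested biliary and epithelial miRNAs 0 were called (median -0.33; 1830.5 to 5072.3 CPM against 1128.2 to 2801.2 CPM). Library 3 was the highest in these 3 lists. Without library 3 the medians of the leukocyte, stellate and biliary lists were -0.07, 0.00 and 0.07. In the stellate list, miR-199a-3p and miR-199b-3p have the same mature sequence and a log2 fold change of -0.44 each, so its members are not independent.

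Endothelial and red cell miRNAs gave no calls. miR-126a-3p and miR-126a-5p, the endothelial list, had log2 fold changes of 0.03 and 0.18. The 7 red cell miRNAs had a median of -0.22, with miR-451a at 781.3 ± 227.1 and 798.7 ± 203.5 CPM, while summed levels were 9791.9 to 23986 CPM in the reference group and 10986 to 16292 CPM in HFoleic. Of these, miR-486a and miR-486b counted nearly the same reads (98.6 to 99.9% of the partner's count in both arms), so the 7 values are not independent and the sum holds those reads more than once. The lists of muscle, pancreas and intestine had 1 tested member each, which are the 3 miRNAs described above, and miR-208a-3p of the muscle and heart list was at 0 counts. None of the 3 neuronal miRNAs and none of the 32 listed miRNAs of the imprinted Sfmbt2 intron on chromosome 2 (10370510 to 10595253) had enough counts to be tested. The part of library 3 and of other cell types in the calls was not tested.

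**Figure D5:**
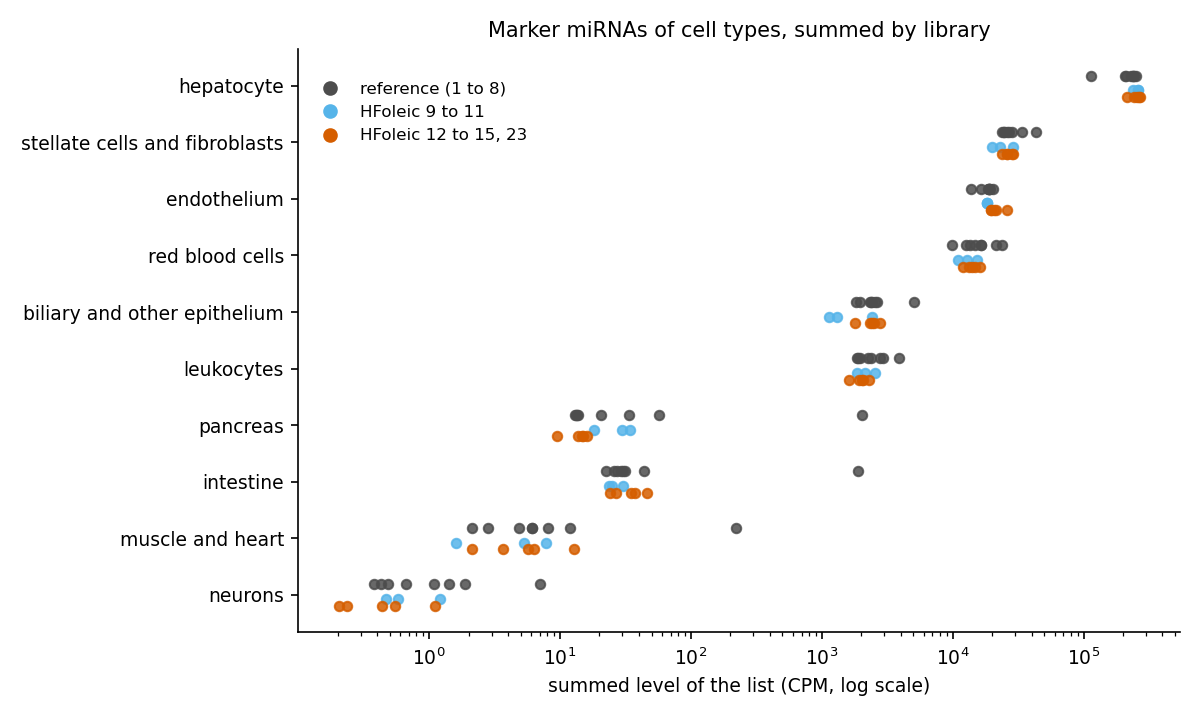
Summed CPM of each list of cell-type miRNAs by library on a log axis. Reference library 3 is the lowest for hepatocyte and the highest for stellate, biliary and leukocyte miRNAs, reference library 5 is the highest for pancreas and reference library 4 for intestine and muscle.

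The list of miRNAs linked to obesity or fatty liver had 32 tested members, of which 3 were called higher and 0 lower (median 0.06), beside 4.92% higher and 7.51% lower over all tested miRNAs. Since it was drawn up with earlier results of these data known, it is not independent evidence. miR-33-5p, which is cut from an intron of the sterol regulator gene Srebf2 (chromosome 15, 82198122 to 82198190) and represses cholesterol efflux, rose from 3.53, 7.38 and 10.6 CPM to 9.69, 10.7 and 14.6 CPM (0.58 ± 0.17, edgeR adjusted p = 0.0278). It has under 10 CPM and was named after its values were seen, and its call was lost without library 5, 14 or 23. Its partner miR-33-3p had 4.66 ± 1.56 and 5.15 ± 1.52 CPM. miR-335-3p, from an intron of the imprinted gene Mest (chromosome 6, 30741299 to 30741396), a gene linked to fat cell size, rose from 23.3, 29.7 and 47.2 CPM to 36.4, 43.4 and 58.4 CPM (0.51 ± 0.14, edgeR adjusted p = 0.0233). It lost its call without library 13 or 15 but kept it without reference libraries 3 to 5, where its log2 fold change was 0.67. The third was miR-107-3p.

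Other members of this list did not pass the test. miR-34a-5p, a p53 target raised in many models of steatosis, had 33.3 ± 37.0 and 41.4 ± 17.6 CPM (0.31 ± 0.40, edgeR adjusted p = 0.653). Without reference libraries 3 to 5 its log2 fold change was 0.97, and it was not called there either. miR-21a-5p had 47790 ± 6586.0 and 39745 ± 5645.8 CPM (-0.27 ± 0.10, edgeR adjusted p = 0.085), miR-132-3p 34.5 ± 24.8 and 21.8 ± 2.39 CPM (-0.66 ± 0.26, edgeR adjusted p = 0.103), and miR-29a-3p, miR-29b-3p, miR-29c-3p and both arms of miR-378a had log2 fold changes of 0.04 to 0.21. miR-27b-3p was past the p threshold (edgeR adjusted p = 0.0288) with a log2 fold change of 0.18, under the size required.

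Outside the families and lists, miR-221-5p and miR-149-5p had the largest increases among miRNAs with at least 10 CPM. miR-149-5p, cut from an intron of the glypican gene Gpc1 (chromosome 1, 92850378 to 92850443), rose from 52.3, 80.7 and 140.9 CPM to 81.2, 156 and 274.3 CPM (0.94 ± 0.28, edgeR adjusted p = 0.0342), and its call held in 8 of 16 leave-one-out fits. miR-221-5p rose from 12.2, 15.5 and 19.8 CPM to 19.2, 34.2 and 51.1 CPM (1.06 ± 0.21, edgeR adjusted p = 0.006), with libraries 9 to 11 at the top of the reference range (19.2 to 19.8 CPM). The far more abundant miR-221-3p, a known pro-proliferative liver miRNA, had 375.4 ± 33.5 and 395.5 ± 48.1 CPM (0.08). The sum over Mir221 and Mir222 was 0.06 ± 0.08 (edgeR adjusted p = 0.641). Smaller increases of 0.32 to 0.53 were called for miR-22-5p, miR-365-3p, miR-101b-3p, miR-151-5p and miR-1839-3p, and in each except miR-1839-3p and miR-151-5p the reference library with the lowest value was library 3.

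The most abundant miRNAs of the liver did not pass the test. miR-192-5p had 98086, 204640 and 219059 CPM in the reference group and 189292, 226393 and 239345 CPM in HFoleic (0.22 ± 0.11, edgeR adjusted p = 0.175), where the lowest value was library 3. miR-22-3p (0.16 ± 0.07, edgeR adjusted p = 0.128), miR-148a-3p (-0.13 ± 0.09, edgeR adjusted p = 0.377) and miR-30a-5p (0.17 ± 0.08, edgeR adjusted p = 0.137) also had overlapping groups. The median GC content of the mature sequence was 47.8% for the miRNAs called higher, 47.6% for those called lower and 47.6% for all tested.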

How the data were processed

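Each library is the liver small RNA of 1 mouse, and groups follow the lineage and diet in the sample labels. The authors trimmed reads with the FASTX-Toolkit, aligned them with Bowtie within ncPRO-seq and deposited unnormalized counts per mature miRNA of miRBase, 1 library per mouse. They also deposited a signal per library, the count divided by a size factor, which was not used here. The deposited log2 fold changes, p-values and adjusted p-values of their own comparisons were not used either. bcl2fastq 2.17.1.14 is named in the submitters' processing notes. The methods name the genome as GRCm38.p6 and as mm9 and the labels as mm10, and the counts carry no coordinates. Positions given here are those of GENCODE M21 on GRCm38.

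From the counts, 386 of 1218 miRNAs (99.98% of counts) passed edgeR's filterByExpr. TMM factors were computed and all 3 groups entered 1 quasi-likelihood fit, whose contrast HFoleic minus reference was tested with p-values adjusted by Benjamini-Hochberg. A call needed an adjusted p under 0.05 and a log2 fold change over 0.25 in size. Counts were also summed over miRNAs with identical bases 2 to 8 and over hairpins under 10 kb apart on 1 strand, and both tables were tested in the same way. Of the listed miRNAs, 1045 had a RefSeq mature sequence; the 173 others hold 12.6% of the counts. The 45 miRNAs made at more than 1 cluster (12.5% of the counts) were left out of cluster sums. Arm ratios were tested by limma with a trend on log2((5p + 1)/(3p + 1)), and shares by exact permutation tests. Cell-type lists got counts and medians only, with no test.

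Library totals were 4340903 to 8139344 counts. Mean totals of 6220622 in reference and 5576485 in HFoleic did not pass an exact permutation test (p = 0.201). Between libraries of a group the lowest chi-square per degree of freedom was 28.9, so each was kept as 1 replicate. At this depth the differences between mice were larger than counting error. The edgeR, DESeq2, voom and arm ratio tests were first tested on simulated counts.

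Named were the 10 largest fold changes called in each direction with at least 10 CPM, called members of families and clusters with 2 or more calls, called families and clusters, list members with at least 10 CPM, the 5 most abundant miRNAs, and up to 5 hairpins whose arm ratio changed in each direction, with their neighbours at those loci. The miRNAs, lists and groupings were chosen with earlier results of these data known. Alternatives were DESeq2, limma-voom, library size alone, upper-quartile factors, other filters, robust dispersions, no fold threshold, the 2 groups alone and each library left out. Added after the data were seen were fits without HFoleic libraries 9 to 11, with these only, without reference libraries 3, 4 and 5 in several combinations, and with a covariate that splits the libraries at number 11. Software versions were edgeR 4.0.16, limma 3.58.1 and DESeq2 1.42.0 in R 4.3.3, and Python 3.11.15 with numpy 2.4.6, pandas 2.3.3, scipy 1.17.1 and matplotlib 3.10.9 (seed 20200412).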

Additional observations from a re-analysis of the deposited data

Results flagged for a closer look

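Single libraries far from the rest of their group were found in 42 of 138 groups of 8 values looked at, 36 in the reference group and 6 in HFoleic. Many of the flagged groups are called miRNAs, and several come from the same locus, so the count was not compared with chance. Most belong to 3 reference libraries, and the causes were not tested.

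Reference library 3 was apart on the low side for miR-192-5p (98086 CPM), miR-30a-5p (46035 CPM), miR-192-3p (29.3 CPM), miR-101b-3p (1543.0 CPM), miR-107-3p (550.4 CPM), miR-365-3p (55.3 CPM) and the summed hepatocyte list (114493 CPM). It was apart on the high side for miR-100-5p (281.6 CPM), miR-99b-5p (987.2 CPM), miR-181a-2-3p (92.4 CPM), miR-181b-5p (368.6 CPM), miR-501-3p (15.4 CPM) and miR-92b-3p (54.9 CPM). Its biliary list (5072.3 CPM) and the miRNAs of the Sfmbt2 intron (12 CPM) were also high.

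Reference library 4 was apart for miR-215-5p (1884.8 CPM), miR-133a-3p (205.2 CPM) and the intestine (1904.9 CPM) and muscle (221.6 CPM) lists. Reference library 5 was apart for miR-375-3p (2019.9 CPM), the pancreas list (2020.7 CPM), the neuronal list (7.05 CPM) and the summed Dlk1-Dio3 region (6962.8 CPM). Within that region it was apart for miR-127-3p (3939.2 CPM), miR-411-5p (696.3 CPM), miR-434-3p (580.7 CPM), miR-541-5p (420 CPM), miR-136-3p (189.5 CPM), miR-3071-5p (179.8 CPM) and miR-410-3p (168.7 CPM). Less abundant miRNAs of the region were miR-381-3p (107.6 CPM), miR-3071-3p (79.6 CPM), miR-136-5p (76.4 CPM), miR-434-5p (75.7 CPM), miR-300-3p (69.8 CPM) and miR-409-3p (48 CPM).

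In HFoleic, library 14 was apart for miR-99b-5p (5687.0 CPM), the summed miRNAs within Clcn5 (394.5 CPM) and the endothelial list (26002 CPM). Library 10 was apart for let-7e-5p (453.3 CPM), library 23 for miR-541-5p (27.5 CPM) and library 9 for the summed Dlk1-Dio3 region (235.6 CPM).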

How the results depend on the processing

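The number of calls depended on which libraries entered. Against 48 miRNAs, 25 families, 14 clusters and 21 hairpins, leaving out each library in turn gave 12 to 53, 6 to 32, 2 to 20 and 13 to 28, and the share of counts in the less abundant arm differed by -0.24 to -0.158 percentage points. Fits of the 2 groups alone called 7 miRNAs, 7 families and 4 clusters. DESeq2 called 28 miRNAs and 13 families, limma-voom 30 miRNAs, and no filter 29. With HFoleic libraries 9 to 11 as the only HFoleic libraries, 0 miRNAs, 0 families, 0 clusters and 0 hairpins were called by edgeR or limma (28 miRNAs at an unadjusted p under 0.05), and without these libraries 34 hairpins were. Without reference libraries 4 and 5, edgeR called 6 miRNAs, 4 families and 0 clusters; without 3 and 5, 10, 5 and 0; and without 3 to 5, 2, 2 and 0, with 9 hairpins. Without reference 4 and 5 and HFoleic 9 to 11, 16 families and 7 clusters were called. A covariate that splits the libraries at number 11 left 1 miRNA, 1 family and 1 cluster, none of them among those called without it. The difference in less abundant arms was -0.307 without the 3 most abundant miRNAs and -0.183 without libraries 9 to 11. The causes were not tested.

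Over 103 named miRNAs and 16 alternatives, 1219 values kept direction and side of the threshold, 385 lost the call, 10 gained it and 22 turned direction. miR-100-5p turned to -0.21 with libraries 9 to 11 only and -0.22 with that covariate, miR-99b-5p to -0.22 and -0.23, miR-125b-5p to -0.10 and -0.11, and miR-151-5p to -0.02 and -0.03. Without reference 4 and 5, miR-133a-3p was at 0.14, miR-375-3p at 0.10 and miR-215-5p at 0.00. Without these and HFoleic 9 to 11, miR-133a-3p was at 0.21 and miR-215-5p at 0.12. Without reference 3 to 5, miR-133a-3p was at 0.28, miR-215-5p at 0.09, miR-375-3p at 0.13, miR-411-5p at 0.05, miR-434-5p at 0.18 and miR-541-5p at 0.12. Without reference 3 and 5, miR-434-5p was at 0.12 and miR-541-5p at 0.11. miR-215-5p was at 0.02 with DESeq2 and from -3.25 to 0.03 with each library left out, the highest without reference library 4.

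No paired analysis was possible because the labels number the libraries consecutively and give the groups no shared replicate numbers.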
